A study of Caenorhabditis elegans with 44 samples.

Results

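The 6 libraries described here follow control adults of Caenorhabditis elegans over the early part of adult life, from 8 h to 24 h on plates with ethanol, the solvent used for auxin. They were chosen by strain, treatment, time and replicate number: 3 libraries at 24 h and the 3 at 8 h with the same numbers, out of 44 libraries in 12 groups. All came from the strain CA1199, with the mutation unc-119(ed3) on chromosome III and, on chromosome IV, the single transgene ieSi38, which joins the sun-1 promoter to TIR1 and mRuby and carries Cbr-unc-119(+). The sun-1 promoter drives TIR1, a plant F-box protein that recruits degron-tagged proteins for destruction once auxin is present, in the germline. CA1199 has no degron-tagged HSF-1, so on ethanol it had neither auxin nor a target of TIR1, and it is called TIR1-only below. Hatchlings synchronized with bleach grew for 51 h to young adults, about 120 animals per condition were then picked onto ethanol plates, and none of these libraries had a heat shock. RNA of the pooled whole animals was extracted with Trizol, selected for poly(A) tails and made into directional libraries. A further 2 groups served for comparison: the same strain on auxin, and the strain JTL621 on ethanol, in which HSF-1 carries the degron and is called HSF-1-AID below. Libraries of HSF-1-AID animals on auxin entered only the joint scaling and a joint fit given below. Age, time on the plate and the deposited table, of which each time has its own, cannot be told apart in this comparison.

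As background, a hermaphrodite of this species first makes sperm as a larva, stores them, and then switches to oocytes, which are fertilized as they pass the sperm store. A young adult therefore moves from having just completed its last cuticle to steady egg production. The cuticle is built largely of collagens secreted by the hypodermis and the seam cells around each molt. The intestine makes the yolk proteins that the oocytes take up, and it stores and burns fat. The germline holds a large share of an adult's transcripts, so whole-animal RNA mixes it with all somatic tissues. In such bulk RNA, fewer cells of a type and less RNA per cell cannot be told apart.

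Levels are given in CPM, reads of a gene per 1e6 reads of its library after all libraries were scaled together. The libraries held 14.5 to 18.8 M reads at 8 h and 13.3 to 19.3 M at 24 h, so that counting error is small for most genes and the spread between libraries sets the precision. Annotated ribosomal RNA took 6.44% to 31.4% of reads at 8 h, the highest share being in replicate 3, and 3.78% to 10.9% at 24 h. At 8 h, replicate 2 stood apart. Its log2 profile correlated with the mean of the 24 h libraries at r = 0.978, against 0.966 for replicate 1 and 0.963 for replicate 3, as a description over the 9849 genes tested. It was the 8 h library nearest to the 24 h mean for 1804 of the 3218 genes called below, or 56.1%. An additional 8 h library, replicate 4, has a higher library code than the 6 and was kept out of the tests, but its value is given beside several results. It differs from the others in depth and make-up, with 44.8 M reads and 1.26% of them annotated ribosomal RNA. The labelled tissues were checked with their markers: germline genes such as glh-1 and htp-3, oocyte genes such as oma-1 and rme-2, and the muscle and intestine markers were listed at both times, while of the 6 neuron markers snt-1 was listed at 8 h only and rgef-1 in neither table. Of the embryonic markers, end-1, end-3, tbx-37, hlh-1 and sdz-38 were listed in neither table, while elt-1 was listed at both times. Of the sperm markers gsp-3, gsp-4 and spe-11 were listed at 8 h only, and spe-9 and spe-38 in neither table. Of the hypodermis markers elt-3 was listed at both times, and dpy-7 and rol-6 in neither table. Of the pharynx markers myo-1 and myo-2 were listed at both times and tnc-2 at 8 h only.

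More transcripts fell than rose between 8 h and 24 h, and the falls were the larger changes. Of 9849 genes tested, 3218 (32.7%) passed an adjusted p of 0.05 in limma's test with the replicate number as a block. The 1948 that fell make up 19.8% of the genes tested and the 1270 that rose make up 12.9%. Falls beyond 2-fold numbered 692 (7.03%) and rises beyond 2-fold 113 (1.15%), while 91 genes (0.924%) fell and 14 rose by more than 4-fold. The values of both times did not overlap for 3727 genes (37.8%), and for 962 of the genes that rose (9.77% of the genes tested). The median log2 fold change over all tested genes was 0.01. The rises rest more on the pairing than the falls do: without the replicate block, 480 genes rose (4.87%) and 1366 fell (13.9%). Without the pair of libraries numbered 2, 767 rose (7.79%) and 1672 fell (17.0%), and with 8 h replicate 4 added and no block, 556 rose (5.61%) and 1503 fell (15.2%). If the depth-normalized values of each table were left as the authors scaled them, 3530 genes rose (35.8%) and 1316 fell (13.3%), with a median log2 fold change over all genes of 0.20. Small changes in either direction are therefore relative to the joint scaling.

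**Figure D1:**
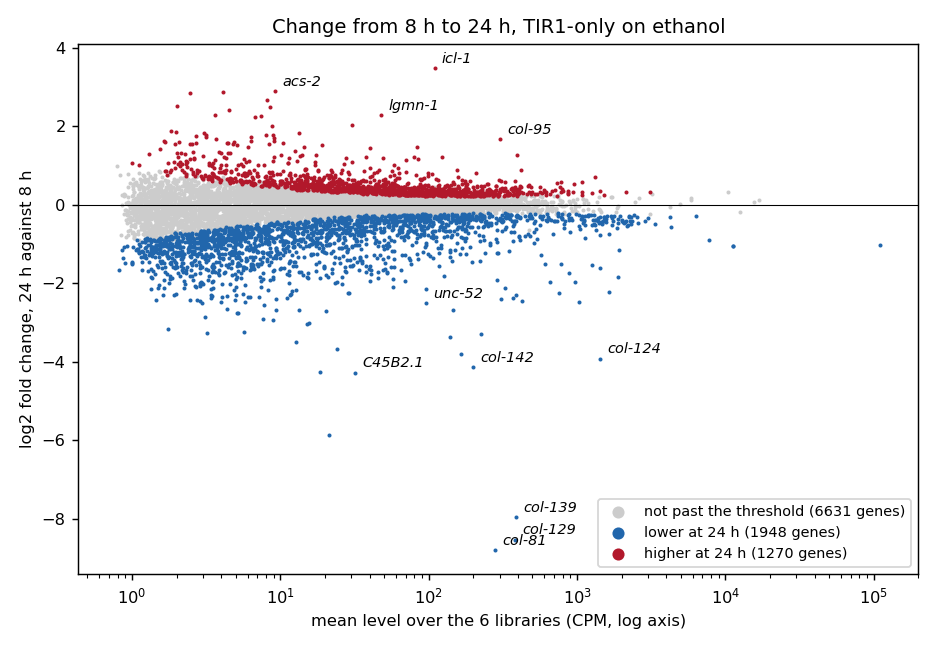
Log2 fold change from 8 h to 24 h (vertical axis) against the mean level over the 6 libraries in CPM (horizontal log axis), with each point a gene. Blue marks the 1948 genes that fell, red the 1270 that rose and grey the rest; the collagens col-81, col-129 and col-139 lie lowest and icl-1 highest.

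Cuticle collagen genes gave the largest falls. Of 52 collagens tested, 43 fell and 2 rose, with a median log2 fold change of -1.78 beside 0.01 over all genes. Among them 39 fell by more than 2-fold and 21 by more than 4-fold. The summed level of the collagens listed in both tables was 37607, 23925 and 37531 CPM at 8 h in replicates 1, 2 and 3, and 8487, 9338 and 9670 CPM at 24 h, a fold of 3.60 between the means. Replicate 2 was the lowest 8 h library, for the sum and for 41 of the 43 collagens that fell, yet all 8 h sums lay above all 24 h sums. Without the pair numbered 2, 42 of 52 fell, with a median of -1.94.

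The largest fall was that of col-81 (WBGene00000657, chromosome II, 11012397 to 11013767 on WBcel235), a gene of this family. It was at 716, 234.8 and 734 CPM at 8 h, then 1.03, 0.962 and 1.09 CPM at 24 h. All 8 h libraries were far above all 24 h libraries, with replicate 2 the lowest of them and 8 h replicate 4 at 718 CPM. The log2 fold change was -8.80 ± 0.23 (SE, adjusted p = 2.94e-10). The neighbours of col-81 in size of fall were col-129 (WBGene00000703, chromosome IV, 12108734 to 12110439 on WBcel235) and col-139. The level of col-129 was 870.5, 343 and 1057 CPM at 8 h, then 1.66, 1.37 and 2.33 CPM at 24 h. That of col-139 was 948, 327 and 1059 CPM at 8 h, then 2.69, 2.47 and 2.85 CPM at 24 h. Both followed the same order of libraries, with replicate 2 low at 8 h. Their log2 fold changes were -8.53 ± 0.17 (SE) and -7.97 ± 0.22 (SE) (limma adjusted p = 2.84e-11 and 3.65e-10). Higher in level, col-124 was at 3134, 1936 and 3008 CPM at 8 h, then 174, 143 and 208 CPM at 24 h, a log2 fold change of -3.93 ± 0.09 (SE, adjusted p = 7.76e-11). At 24 h this gene kept a level well above the few CPM of col-81, col-129 and col-139. Other falls were those of col-142 (-4.14), col-159 (-3.80), col-92 (-3.36) and, as the called collagen with the highest mean level, col-119 (-1.16).

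The adult collagen col-19, which marks the adult cuticle in work on developmental timing and was picked for mention after its values were seen, was at 1989, 1397 and 1899 CPM at 8 h, then 288, 299 and 357 CPM at 24 h. Its groups did not overlap, and its log2 fold change was -2.47 ± 0.10 (SE, adjusted p = 1.77e-08). Against the family's direction, col-95 was at 188, 108 and 145 CPM at 8 h, then 402, 531 and 442 CPM at 24 h. Here every 24 h library was above every 8 h library, and the log2 fold change was 1.67 ± 0.16 (SE, adjusted p = 1.41e-05). Collagens kept by the authors at 8 h only numbered 19, with a summed level of 197, 55.7 and 223 CPM in replicates 1, 2 and 3. The highest of these was col-149, at 43.9, 8.86 and 57.3 CPM. Replicate 2 was again the lowest. Collagens form a large family, and how reads shared by similar members were assigned is not given in the sources used here.

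**Figure D2:**
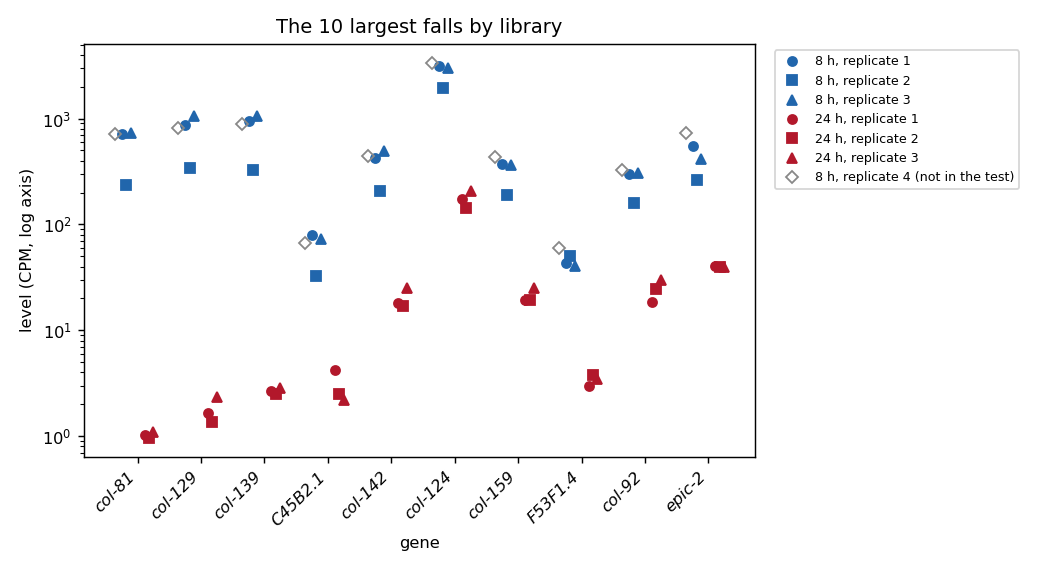
Levels in CPM (log axis) of the 10 genes with the largest falls by the naming rule, in each library. Blue marks 8 h, red 24 h, shapes the replicate numbers 1 to 3, and grey diamonds 8 h replicate 4. Collagens make up 7 of the 10, and for each of the 10 genes all 8 h libraries lie above all 24 h libraries. The naming rule requires this of libraries 1 to 3, so only the place of replicate 4 was not set by it.

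That rule asks for a level above the median of 23.9 CPM, no overlap between times and 1 sign in all pairs. The other 3 genes among its 10 largest falls were epic-2, F53F1.4 and C45B2.1. The level of epic-2 was 555, 263 and 419 CPM at 8 h, then 40.5, 39.9 and 39.2 CPM at 24 h, a log2 fold change of -3.30 ± 0.15 (SE, adjusted p = 4.15e-08). F53F1.4 was at 42.8, 50.8 and 40.3 CPM at 8 h, then 2.98, 3.78 and 3.47 CPM at 24 h, a log2 fold change of -3.68 ± 0.14 (SE, adjusted p = 1.02e-08). C45B2.1 was at 78.7, 32.4 and 72.3 CPM at 8 h, then 4.24, 2.47 and 2.17 CPM at 24 h, with a log2 fold change of -4.28 ± 0.21 (SE, adjusted p = 6.25e-08). Replicate 2 was the lowest 8 h library for epic-2 and C45B2.1 but the highest for F53F1.4. Of 10 seam and hypodermis genes tested, 6 fell and 0 rose (median -1.10); they include the hedgehog-related grd-3 (-1.86) and elt-3, a GATA factor of the hypodermis (-1.34). Of 16 genes of molting and other cuticle parts, 5 fell and 1 rose (median -0.44), among them the patched-related ptr-23 (-1.66) and the metalloprotease nas-37, which is needed to shed the old cuticle (-1.13). The other 10 molting and cuticle genes did not pass, so that 37.5% were called, beside 32.7% of all genes tested. Without the pair numbered 1 the list had 2 that fell. The riser was lin-42, the nematode relative of Period, at 0.89, which did not pass without the block (adjusted p = 0.0637), with 8 h replicate 4 added (adjusted p = 0.178) or without the pair numbered 1 (adjusted p = 0.120).

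Body wall muscle genes fell together in these libraries. Of 23 tested, 21 fell and 0 rose, with a median of -1.27, and 15 fell by more than 2-fold. Their summed level was 3419, 3076 and 3926 CPM at 8 h, then 1387, 1443 and 1619 CPM at 24 h, a fold of 2.34. The 8 h libraries all lay above the 24 h libraries, and 8 h replicate 4 was higher still, at 5348 CPM. The largest fall in the list was that of unc-52 (WBGene00006787, chromosome II, 14647321 to 14684456 on WBcel235), which encodes perlecan in the basement membrane under muscle. It was at 181, 146 and 163 CPM at 8 h, then 21.6, 33.1 and 32.3 CPM at 24 h, a log2 fold change of -2.51 ± 0.14 (SE, adjusted p = 2.96e-07). The groups were far apart, and all 3 pairs fell. The myosin heavy chain unc-54 was at 295, 515 and 561 CPM at 8 h, then 87.2, 116 and 154 CPM at 24 h, a log2 fold change of -1.92 ± 0.09 (SE, adjusted p = 4.19e-08). Replicate 1 was the lowest library at both times, and the times did not overlap. A further myosin of the thick filament, myo-3, fell by 1.98 on the log2 scale, the paramyosin unc-15 by 1.34, the troponin I unc-27 by 1.27 and the troponin C pat-10 by 0.93. Without the pair numbered 2, again 21 of the 23 fell.

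Most neuronal genes that passed the test fell. Of 15 tested, 7 fell and 1 rose (median -0.64), and all 7 that fell were lowest at 8 h in replicate 2. The SNAP-25 homolog ric-4 was at 5.41, 4.14 and 6.15 CPM at 8 h, then 2.23, 1.58 and 1.55 CPM at 24 h, a log2 fold change of -1.50 ± 0.23 (SE, adjusted p = 5.35e-04), and the neuropeptide-processing carboxypeptidase egl-21 fell by 1.01. Both were lower in every 24 h library. Synaptobrevin, snb-1, was at 117, 128 and 120 CPM at 8 h, then 143, 130 and 129 CPM at 24 h and did not pass the test (log2 fold change 0.14, adjusted p = 0.222). Of 28 neuropeptide and insulin genes, 12 fell and 3 rose (median -0.67), a called share of 53.6% beside 32.7% of all genes tested. On the log2 scale nlp-20 changed by -1.71, nlp-24 by -1.18 and nlp-56 by 1.56. The tubulin mec-12, made in touch neurons, fell by 2.48. Of the neuronal list, unc-119 itself passed the test at 0.73 (adjusted p = 0.0452; 0.0535 without the block), from 1.47 to 1.85 CPM at 8 h and 2.68 to 3.38 CPM at 24 h; the strain carries a mutation in this gene and a copy from another species, and which of them the reads came from was not tested.

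Intestinal genes fell more often than they rose. Of 21 tested, 12 fell and 3 rose (median -0.43), so that 71.4% were called, beside 32.7% of all genes tested. The actin of the brush border, act-5, was at 458, 538 and 445 CPM at 8 h, then 190, 218 and 232 CPM at 24 h, a log2 fold change of -1.17 ± 0.09 (SE, adjusted p = 2.16e-06). Its times did not overlap, and no replicate stood out. The GATA factor elt-2, the main regulator of intestinal genes, fell by 0.95, the intermediate filament ifb-2 by 0.82 and the aquaporin aqp-8 by 1.28. Of 20 cathepsins and aspartyl proteases, 5 rose and 6 fell (median -0.05; 4 and 1 without the block, 2 and 6 without the pair numbered 2), among them the aspartyl protease asp-1, which fell by 0.63, and the cathepsin B-like cpr-4, which rose by 1.28. The called share of these proteases was 55%, beside 32.7% of all genes tested. The gut esterase ges-1 gave 0.39 and did not pass (limma adjusted p = 0.0761). The yolk genes showed little change: of 6 vitellogenins, only vit-1 passed the test, with a fall. It was at 5085, 5818 and 4532 CPM at 8 h, then 2978, 4121 and 3415 CPM at 24 h, a log2 fold change of -0.56 ± 0.10 (SE, adjusted p = 0.00186). The values did not overlap, and 8 h replicate 2 was the highest of the 6. The level of vit-2 was 14922, 17693 and 13058 CPM at 8 h, then 12732, 17961 and 17783 CPM at 24 h. These values overlapped, and the log2 fold change of 0.08 ± 0.15 (SE) (adjusted p = 0.712) had the other sign, -0.08, with 8 h replicate 4 added and, at -0.10, without the pair numbered 3.

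**Figure D3:**
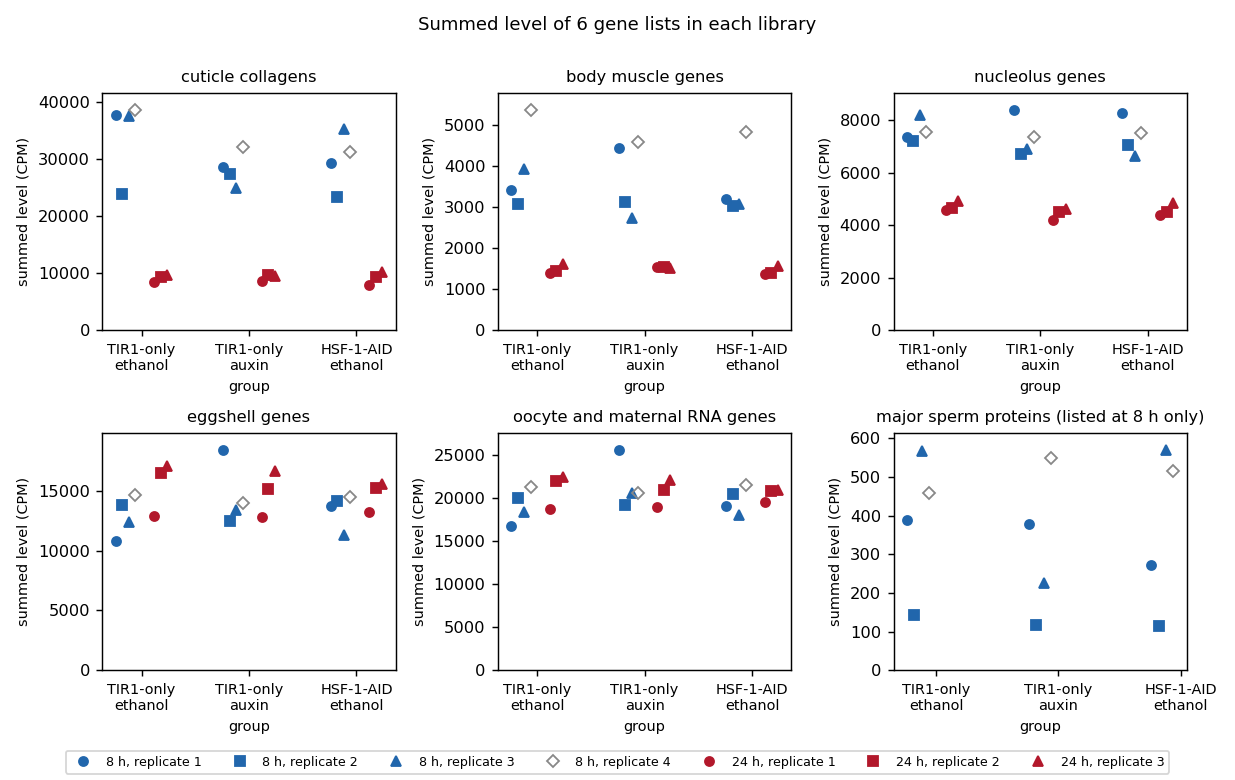
Summed level in CPM (vertical axes from 0) of 6 gene lists in every library of TIR1-only on ethanol, TIR1-only on auxin and HSF-1-AID on ethanol (horizontal axes), blue at 8 h, red at 24 h, with shapes for replicate numbers and open diamonds for replicate 4. Collagen, muscle and nucleolus sums lie lower at 24 h in every library of these 3 groups, eggshell and oocyte sums overlap, and the major sperm proteins, listed at 8 h only, are lowest in replicate 2 of each group.

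The sums by library show how this pattern recurs in other libraries. On auxin the collagens of the same strain summed to 24833 to 28519 CPM at 8 h and 8592 to 9605 CPM at 24 h, a fold of 2.91. In HSF-1-AID animals on ethanol they summed to 23238 to 35238 CPM and then 8018 to 10258 CPM, a fold of 3.18. Body muscle genes fell 2.25-fold on auxin and 2.15-fold in HSF-1-AID animals. In every one of these groups the 8 h libraries lay above the 24 h libraries for both lists.

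The largest rise was in icl-1 (WBGene00001564, chromosome V, 724332 to 728004 on WBcel235), which encodes the bifunctional enzyme of the glyoxylate cycle, by which worms turn fat into sugar. It was at 22.5, 19.0 and 13.0 CPM at 8 h, then 169.8, 226 and 207 CPM at 24 h. All 24 h libraries were several-fold above all 8 h libraries, with 8 h replicate 4 at 35.6 CPM. The log2 fold change was 3.48 ± 0.15 (SE, limma adjusted p = 3.69e-08), which is 11.2-fold. Another gene of fat use, acs-2 (WBGene00009221, chromosome V, 15567394 to 15569897 on WBcel235), an acyl-CoA synthetase that feeds mitochondrial fatty acid breakdown, was at 2.54, 2.70 and 1.19 CPM at 8 h, then 11.4, 21.5 and 15.6 CPM at 24 h, a log2 fold change of 2.90 ± 0.25 (SE, adjusted p = 5.92e-06). Its 24 h libraries were all higher, and 8 h replicate 4, at 8.47 CPM, lay between the groups. The rest of these pathways did not move as one. Of 28 genes of fatty acid breakdown and lipases, 6 rose and 7 fell (median -0.07). Of 24 genes of glycolysis and gluconeogenesis, 5 rose and 4 fell (median 0.05), and 1 and 1 without the block. The shares called in these lists were 46.4% and 37.5%, beside 32.7% of all genes tested. The fallers include cpt-5 (-0.92), of the carnitine palmitoyltransferase family, and lipl-5 (-0.35), a lysosomal-type lipase that did not pass without the replicate block (adjusted p = 0.0767).

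Fat synthesis genes fell more often than they rose: 10 of 23 fell and 3 rose, with a median of -0.41. The fatty acid synthase fasn-1 was at 249.9, 244 and 272 CPM at 8 h, then 89.1, 144 and 139 CPM at 24 h, a log2 fold change of -1.07 ± 0.12 (SE, adjusted p = 3.66e-05). Its times did not overlap, and replicate 1 was lowest at 24 h. The acetyl-CoA carboxylase pod-2 fell by 0.41; 8 h replicate 4 had 635 CPM against 421 to 475 CPM in the other 8 h libraries. The stearoyl-CoA desaturase fat-7 went the other way. It was at 75.4, 74.6 and 81.1 CPM at 8 h, then 149, 133 and 119.8 CPM at 24 h, a log2 fold change of 0.79 ± 0.09 (SE, adjusted p = 7.47e-05). All 24 h libraries were higher than all at 8 h.

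Among called genes above the median level of 23.9 CPM whose times did not overlap, the 10 largest rises were those of icl-1, lgmn-1, clec-190, col-95, ugt-62, lys-2, cpr-4, lec-8, msra-1 and K07C11.7. Genes of lower level rose by more than several of these, acs-2 among them. The legumain-like protease lgmn-1 was at 20.8, 15.4 and 13.3 CPM at 8 h, then 82.1, 71.1 and 85.2 CPM at 24 h, a log2 fold change of 2.28 ± 0.13 (SE, adjusted p = 2.71e-07). The C-type lectin clec-190 was at 19.2, 8.80 and 9.49 CPM at 8 h, then 45.7, 42.7 and 56.6 CPM at 24 h, a log2 fold change of 2.03 ± 0.20 (SE, adjusted p = 1.60e-05). For both the times were well separated, and 8 h replicate 1 was the highest of the early libraries. The lysozyme lys-2 rose by 1.45 on the log2 scale, the cathepsin cpr-4 by 1.28, the galectin lec-8 by 1.22, the methionine sulfoxide reductase msra-1 by 1.21, the UDP-glucuronosyltransferase ugt-62 by 1.47 and K07C11.7 by 1.21. As a list, the lectins, lysozymes and saposins had 22 of 77 members higher and 11 lower (median 0.05). Detoxification genes of the cytochrome P450, UDP-glucuronosyltransferase and glutathione S-transferase families had 17 of 99 higher and 31 lower (median -0.21), from cyp-13A5 at 2.68 to ugt-60 at -2.35. The transthyretin-like family had 4 of 37 higher and 15 lower, from ttr-44 (2.49) to ttr-31 (-2.04). The shares called were 42.9% of the lectin, 48.5% of the detoxification and 51.4% of the transthyretin-like list, beside 32.7% of all genes tested. Over all genes tested 12.9% were higher and 19.8% lower. Of 23 genes of the infection response, 2 rose and 6 fell, among them fipr-21 (-1.76), and of 118 nuclear hormone receptors 9 rose and 23 fell, the largest fall being nhr-31 (-1.86). The shares called in the infection and receptor lists, 34.8% and 27.1%, lie near the 32.7% of all genes tested.

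**Figure D4:**
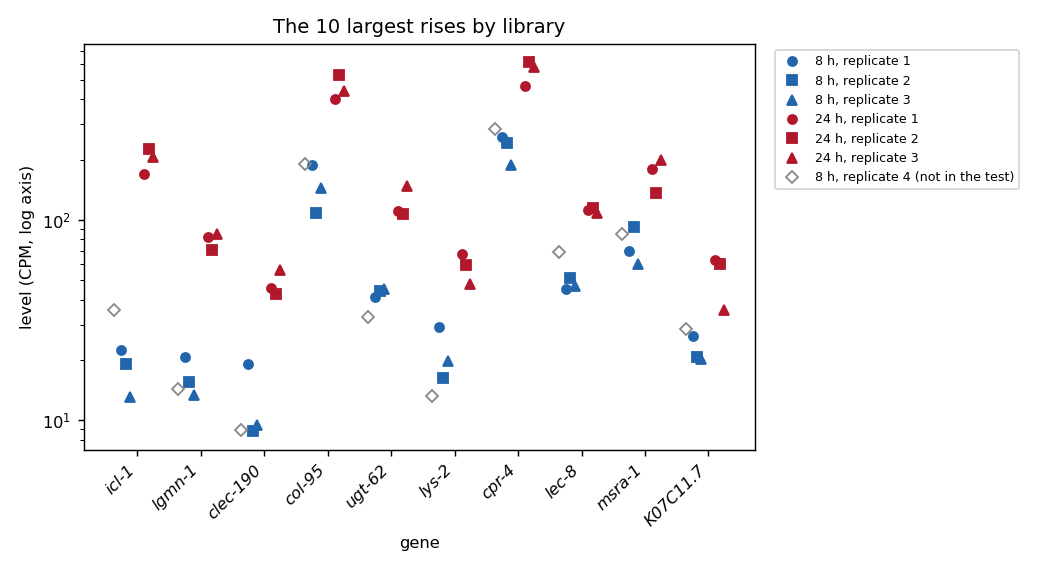
Levels in CPM (log axis) of the 10 genes with the largest rises by the naming rule, in each library, with colours and shapes as for the falls. For each of the 10 genes all 24 h libraries lie above the 8 h libraries 1 to 3, which the naming rule requires. They also lie above 8 h replicate 4, which it does not require. The level of icl-1 goes from at most 22.5 CPM in libraries 1 to 3 to at least 169.8 CPM.

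Nucleolar and ribosomal protein genes were lower at 24 h. Of 26 nucleolar and ribosome biogenesis genes, 22 fell and 0 rose (median -0.57). The nucleolin nucl-1 was at 1799.9, 1702 and 1925 CPM at 8 h, then 1071, 1004 and 1088 CPM at 24 h, a log2 fold change of -0.78 ± 0.08 (SE, adjusted p = 2.43e-05), and nol-56, a core protein of the box C/D particles that guide ribosomal RNA methylation, was at 633, 659.8 and 733 CPM at 8 h, then 303, 359 and 374 CPM at 24 h, a log2 fold change of -0.97 ± 0.08 (SE, adjusted p = 3.48e-06). Within each time the libraries were close and the times did not overlap. The summed level of the list was 7213 to 8208 CPM at 8 h and 4587 to 4915 CPM at 24 h, with falls of similar size on auxin (1.65-fold) and in HSF-1-AID animals (1.60-fold), beside 1.61-fold here. Of 80 cytosolic ribosomal protein genes, 66 fell and 0 rose (median -0.37), and their sum went from 118561, 124752 and 127782 CPM to 93688, 96868 and 95763 CPM. These sums do not overlap, and 8 h replicate 4 was higher than all of them at 180429 CPM. How many ribosomal protein genes are called depends on the settings: 30 fell without the replicate block, 32 without the pair numbered 2 and 17 with each table's own scaling, where the list's median was -0.17 against 0.20 for all genes. Of 71 genes of tRNA synthetases and translation factors 27 fell and 0 rose (median -0.19), a share of 38.03% beside 32.7% for all genes. The fallers numbered 7 without the block and 8 without the pair numbered 2, and under each table's own scaling 5 fell and 3 rose (median 0.00).

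Within these lists, falls of more than 2-fold were found in rpl-11.2 and iff-2, each of which has a paralog needed in the germline. The ribosomal protein gene rpl-11.2 was at 392, 359 and 470.2 CPM at 8 h, then 159, 186 and 172 CPM at 24 h, a log2 fold change of -1.23 ± 0.10 (SE, adjusted p = 3.17e-06), and its paralog rpl-11.1 was at 2458, 2239.9 and 2528 CPM at 8 h, then 2031, 1673 and 1679 CPM at 24 h, a log2 fold change of -0.43 ± 0.09 (SE, adjusted p = 0.00416). The translation factor iff-2, the somatic eIF5A, was at 116, 127 and 192 CPM at 8 h, then 48.6, 60.4 and 64.9 CPM at 24 h, a log2 fold change of -1.29 ± 0.10 (SE, adjusted p = 3.02e-06), and its germline paralog iff-1 was at 1219.9, 994 and 958 CPM at 8 h, then 1079, 837 and 806 CPM at 24 h, a log2 fold change of -0.22 ± 0.08 (SE, adjusted p = 0.0426). Each paralog pair fell, the member named first by more. The ATP synthase subunit b also has a pair of genes. The somatic form, asb-2, was at 172, 171 and 195 CPM at 8 h, then 83.1, 109.5 and 112 CPM at 24 h, a log2 fold change of -0.83 ± 0.09 (SE, adjusted p = 3.93e-05), and the germline form, asb-1, was at 426, 369 and 385 CPM at 8 h, then 382, 296 and 304 CPM at 24 h, a log2 fold change of -0.27 ± 0.08 (SE, adjusted p = 0.0189). The values of asb-2 did not overlap between times, whereas those of asb-1 did. The partners rpl-11.1, iff-1 and asb-1 were picked after their values were seen, and the differences between paralogs were not tested. In the same pathway as asb-2, 27 of 52 genes of oxidative phosphorylation fell and 0 rose (median -0.25). The fallers numbered 8 without the block and 11 without the pair numbered 2, and under each table's own scaling 6 fell and 1 rose.

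In the germline, transcripts of sperm gave the clearest change of listing. Of 31 major sperm protein genes, which encode the cytoskeletal protein that drives crawling sperm and signals to oocytes, 28 were listed at 8 h and 0 at 24 h. Their summed level at 8 h was 389, 143 and 568 CPM in replicates 1, 2 and 3. Replicate 2 was the lowest, as it also was on auxin (118 CPM) and in HSF-1-AID animals (114 CPM). Another 22 sperm genes were listed at 8 h only, with sums of 128, 43.4 and 145 CPM. These genes are nearly identical copies of each other in part, so the level of a single copy is uncertain. With no value at 24 h they entered no test. A further 5 sperm genes were listed at both times and tested: 1 rose, 1 fell and 3 did not pass, with a median of 0.21. Of the 10974 genes listed at 8 h, 962 were listed at 8 h only, with a median of 1.305 CPM and 56 above 10 CPM. They were led by ssq-4 (49.5, 14.7 and 76.7 CPM), a gene of the sperm-specific family ssq. The 399 listed at 24 h only had a median of 0.797 CPM and 1 gene above 10 CPM, F15E6.3, at 11.4, 8.86 and 10.1 CPM. The 962 and 399 come from unlike tables. That of 8 h also holds the replicates numbered 4, of 44.7 to 50.7 M reads, while the deepest 24 h library held 24.4 M. Whether depth or the authors' filter set these counts was not tested.

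Oocyte and egg genes were slightly higher at 24 h within the pairs, but not in every setting. Of 28 oocyte and maternal RNA genes, 18 rose and 0 fell (median 0.31), and of 15 eggshell genes 12 rose and 0 fell (median 0.32). The RNA-binding protein pos-1, needed for the fates of early embryonic cells, was at 668, 685 and 531 CPM at 8 h, then 906, 959 and 928 CPM at 24 h, a log2 fold change of 0.58 ± 0.09 (SE, adjusted p = 5.01e-04). The 24 h libraries were all higher, and 8 h replicate 4, at 702 CPM, was below them. The eggshell proteoglycan cpg-2 was at 2539, 2878 and 2892 CPM at 8 h, then 2986, 3664 and 3787 CPM at 24 h, a log2 fold change of 0.32 ± 0.09 (SE, adjusted p = 0.0182), but it did not pass without the pair numbered 2 (adjusted p = 0.217), without the block (adjusted p = 0.127) or with 8 h replicate 4 added (adjusted p = 0.207). The permeability barrier gene perm-2 was at 203, 285 and 294 CPM at 8 h, then 293, 432 and 441 CPM at 24 h, a log2 fold change of 0.57 ± 0.07 (SE, adjusted p = 1.41e-04). Its values overlapped between times although each pair rose, and 8 h replicate 4, at 508 CPM, was above all 24 h libraries; with that library the gene did not pass (adjusted p = 0.397). The yolk receptor rme-2 was at 1073, 1556 and 1504 CPM at 8 h, then 1159, 1859 and 1953 CPM at 24 h. Those values overlap widely; within the pairs the log2 fold change was 0.25 ± 0.09 (SE, adjusted p = 0.0441), and it did not pass without the block (adjusted p = 0.428) or without the pair numbered 2 (adjusted p = 0.269). The maturation regulators oma-1 and oma-2 rose by 0.40 and 0.36 on the log2 scale and did not overlap.

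These counts moved with the settings. Without the pair numbered 2, 4 of 15 eggshell genes and 11 of 28 oocyte genes rose, without the block 4 and 6, and with 8 h replicate 4 added 5 of each list. Under each table's own scaling 15 and 23 rose, and 13 and 18 without the pair numbered 1. The eggshell sum was 10842, 13783 and 12391 CPM at 8 h, then 12886, 16460 and 17038 CPM at 24 h, so that the times overlapped. Their means gave a fold of 1.25 here, 1.01 on auxin and 1.13 in HSF-1-AID animals. For the oocyte list the folds of summed level were 1.14, 0.949 and 1.06.

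Among genes of earlier germ cells, few meiotic genes passed the test. Of 48 meiotic genes 1 rose and 0 fell (median 0.07), the riser being the recombinase rad-51 (0.29, adjusted p = 0.0244), which did not pass without the pair numbered 2 (adjusted p = 0.0549) or without the block (adjusted p = 0.0986). Of 37 DNA replication genes 10 rose and 0 fell (median 0.18), and of 59 genes of mitosis 11 rose and 0 fell (median 0.12). The shares called were 27.03% and 18.6%, both below the 32.7% of all genes tested. All of these calls were rises, while 12.9% of all genes tested rose. Without the replicate block each of these lists had 1 riser, and without the pair numbered 2 they had 2 and 6. Under each table's own scaling 28 of the meiotic, 34 of the replication and 39 of the mitosis genes rose, with 35.8% of all genes rising there. The ribonucleotide reductase subunit rnr-2 was at 701, 611 and 629.8 CPM at 8 h, then 954, 845 and 871 CPM at 24 h, a log2 fold change of 0.46 ± 0.07 (SE, adjusted p = 7.57e-04). All of its 24 h libraries were higher than its 8 h libraries. Germ granule genes went both ways, with 6 of 26 higher and 4 lower (median -0.02), and 2 and 2 without the block. The share called in this list was 38.5%, beside 32.7% of all genes tested. The granule helicase glh-1 was at 924, 1005 and 1035 CPM at 8 h, then 606, 679 and 672 CPM at 24 h, a log2 fold change of -0.60 ± 0.08 (SE, adjusted p = 1.20e-04). It was lower in every 24 h library, whereas the meiotic chromosome axis genes him-3 and htp-3 did not pass: him-3 gave -0.17 (adjusted p = 0.134) and htp-3 gave 0.05 (adjusted p = 0.664). At the other end of the list, meg-2 was at 0.74. Among 20 genes of germline stem cells and meiotic entry, 8 rose and 2 fell (median 0.23); the stem cell regulator fbf-2, a PUF protein, fell by 0.61, without overlap, and gld-3, a KH-domain protein that promotes meiotic entry, rose by 0.46. All 10 called genes of this list, 50% of its members beside 32.7% of all genes tested, were closest to the 24 h mean in 8 h replicate 2. Without the block 1 of the list rose and 1 fell, and 4 rose and 1 fell without the pair numbered 3. Of 34 histone genes 8 rose and 2 fell (median 0.31), but 16 rose without the pair numbered 3 (median 0.54), 5 without the pair numbered 2 and 2 without the block, and the median was 0.07 without the pair numbered 1. With all pairs 29.4% of the histone genes were called, beside 32.7% of all genes tested. Most histone genes exist in near-identical copies, so single genes are uncertain. Somatic gonad, vulva and uterus genes were mixed, with 6 of 22 higher and 7 lower (2 and 5 without the block). They run from the sheath cell factor ceh-18 (-1.10) to the cadherin cdh-3 (0.60). The share called was 59.1%, beside 32.7% of all genes tested.

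**Figure D5:**
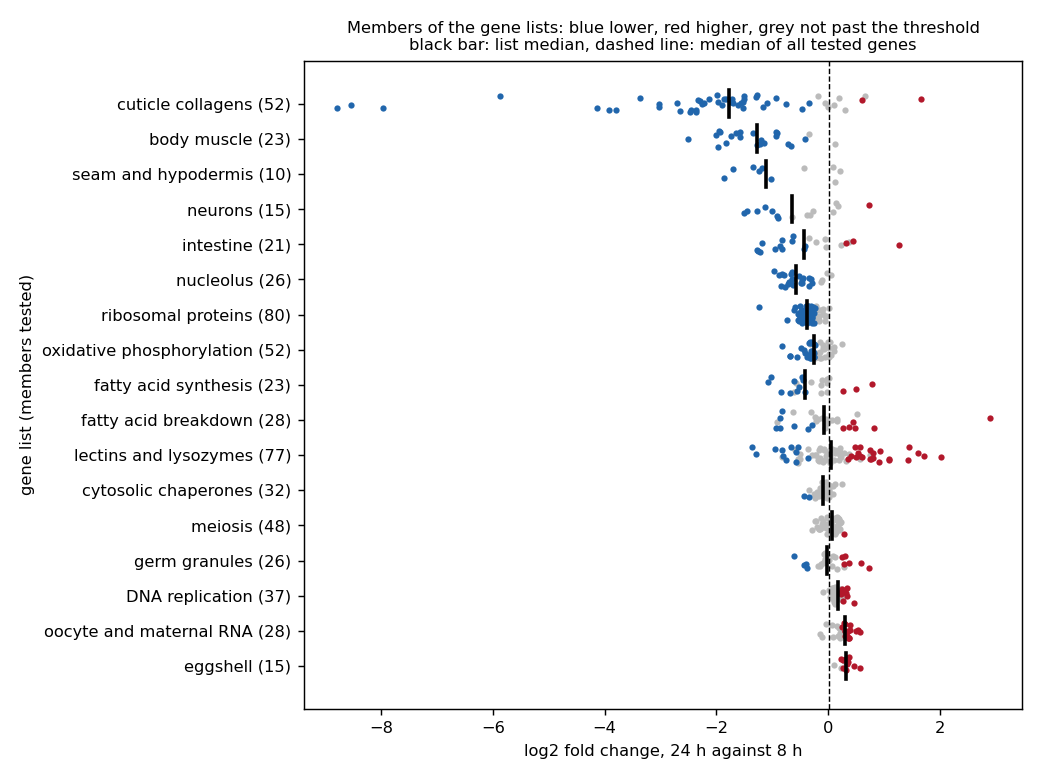
Log2 fold change from 8 h to 24 h (horizontal axis) of every tested member of 17 gene lists (vertical axis, number of tested members in brackets), blue for members that fell, red for those that rose and grey for the rest; points are spread vertically for legibility. The list medians (black bars) run from -1.78 for cuticle collagens to 0.32 for eggshell genes, beside 0.01 for all tested genes (dashed line).

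The study's factor, hsf-1 (WBGene00002004, chromosome I, 11953507 to 11963085 on WBcel235), the master regulator of heat shock genes, carries no tag in these animals. It was at 47.4, 54.5 and 48.1 CPM at 8 h, then 60.9, 66.3 and 65.3 CPM at 24 h. Every 24 h library was above every 8 h library, and the log2 fold change was 0.36 ± 0.09 (SE, adjusted p = 0.0101). With 8 h replicate 4 added it was 0.32 and did not pass (adjusted p = 0.0560). Cytosolic chaperones were close to level: of 32 tested 0 rose and 2 fell (median -0.08), the fallers being the prefoldin pfd-5 (-0.34) and the cyclophilin cyn-6 (-0.43), both of which missed the threshold without the block (adjusted p = 0.127 and 0.103); without the pair numbered 1, 7 fell. The cytosolic chaperone hsp-90 was at 4549, 5049.7 and 5171 CPM at 8 h, then 4789.9, 4993 and 5110.1 CPM at 24 h. Its values overlapped, with a log2 fold change of 0.01 ± 0.10 (SE) (adjusted p = 0.926). The constitutive Hsp70 gene hsp-1 was at 3515, 4793 and 4614 CPM at 8 h, then 3286, 4403 and 4701 CPM at 24 h, again overlapping, with -0.06 ± 0.10 (SE) (adjusted p = 0.637). The direction of both depends on the settings: hsp-90 gave -0.02 without the pair numbered 1, and hsp-1 gave 0.13 under each table's own scaling. Of 11 small and inducible heat shock genes, some of them copies listed with identical values, 1 rose and 2 fell (median -0.38). Without the pair numbered 1, 1 rose and 6 fell, and without the pair numbered 3 the median was -0.01. With all pairs 27.3% of the list were called, beside 32.7% of all genes tested. The fallers with all pairs were hsp-25 (-0.72) and hsp-43 (-0.54), small heat shock proteins. The riser, sip-1, which is made in oocytes and embryos, was at 863, 1019 and 1084 CPM at 8 h, then 1221, 1852 and 1845 CPM at 24 h, a log2 fold change of 0.71 ± 0.09 (SE, adjusted p = 1.25e-04). The 24 h libraries were all higher than libraries 1 to 3 of 8 h, but 8 h replicate 4, at 1917 CPM, was above all of them, and with that library the gene did not pass (adjusted p = 0.207). Of 17 mitochondrial chaperones and proteases 1 rose and 4 fell (0 and 1 without the block), with 29.4% called beside 32.7% of all genes tested. The mitochondrial Hsp70 hsp-6 changed by 0.53, not passing in limma without the block (adjusted p = 0.0517), and the mitochondrial Hsp90 trap-1 by -0.81. Of 19 endoplasmic reticulum chaperones 36.8% were called, beside 32.7% of all genes tested. Of these chaperones 5 rose and 2 fell, with 0 risers without the block or without the pair numbered 2. They run from enpl-1, the Grp94 homolog (0.37, and not passed without the block, adjusted p = 0.0634) to the Hsp40 dnj-20 (-0.56). None of 31 proteasome genes passed the test in limma, under which the list's log2 fold changes ran from -0.16 to 0.15; 15 of them rose under each table's own scaling. The promoter donor of the transgene, sun-1, gave 0.19 (adjusted p = 0.0772).

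The same interval was measured in libraries of 2 other groups that were also not depleted of HSF-1. Fitted the same way, TIR1-only animals on auxin had 516 genes past the threshold (5.24%) and HSF-1-AID animals on ethanol 956 (9.71%). On auxin 505 of the 516 had been called on ethanol in the same direction, which is 97.9% of the auxin list and 15.7% of the 3218. In HSF-1-AID animals 928 were shared in the same direction, 97.1% of their list and 28.8% of the 3218. No gene was called in opposite directions. Of the 3218 genes, called or not in the other groups, 3114 (96.8%) had the same sign on auxin and 3192 (99.2%) in HSF-1-AID animals. These 3218 were chosen for their change on ethanol, and the same share over all genes tested is not given here. The libraries compared are separate, but all groups share the scaling of each time's table, and the table is not told apart from age in any of them. They also share a trait by replicate number: at 8 h the major sperm protein sum was lowest in replicate 2 of each of these groups. For icl-1 the log2 fold change was 2.96 on auxin and 3.23 in HSF-1-AID animals, for acs-2 3.01 and 2.91, for col-81 -7.80 and -8.57, for unc-52 -2.58 and -2.54, and for nucl-1 -0.77 and -0.75. For rme-2 it was -0.05 and 0.13, for perm-2 0.19 and 0.50 and for hsf-1 0.15 and 0.12.

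Whether the change with time differed from that of TIR1-only on ethanol was tested in a single limma fit of 24 libraries with an interaction term. The fit held 4 groups, the last being HSF-1-AID animals on auxin, the depleted group. The spread was shared, so the scatter of the depleted libraries enters both tests below. Against the same strain on auxin, 0 of 9849 genes (0%) passed, with 200 at an unadjusted p under 0.05. Against HSF-1-AID animals on ethanol, 0 of 9849 (0%) passed, with 98 at an unadjusted p under 0.05. Both unadjusted counts lie below the share of 0.05 of the genes that would be expected with no differences. The counts of genes passing were also 0 in both tests with limma voom on the recovered reads. Both tests use the TIR1-only ethanol libraries, so they are not independent of each other, and a test that misses the threshold does not show that the changes were equal. For icl-1 the rise on auxin differed from that on ethanol by -0.52 on the log2 scale, with an adjusted p of 0.996. Among the genes named here by rule, K07C11.7, col-124, col-142, enpl-1, hsp-25, hsp-90, lgmn-1, mec-12, msra-1, nas-37, nlp-24, nlp-56, perm-2, pod-2, rnr-2, sip-1, ttr-44, unc-52 and vit-2 overlap an annotated gene on the opposite strand, and col-159 overlaps a gene on its own strand. The libraries are directional, but whether the counting used the strand is not given in the sources used here, so the reads of such a gene and its neighbour cannot be told apart with certainty.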

How the data were processed

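Poly(A) RNA of whole animals was sequenced in 44 libraries, of which 6 enter the comparison. The authors' tools were STAR, featureCounts and edgeR, and the builds WBcel235 or ce11, per the submitters' processing notes, which as used here give no version, annotation or strand setting. The deposited values are log2 CPM, 1 table per time, with a prior of 2 reads as read from the values. Removing each table's offset on the linear scale gave whole reads for 100% of values in the 6 libraries (tolerance 0.05 of a read). Each value's depth is that of its library, 13.3 to 19.3 M (1e6) reads. Of 10974 genes listed at 8 h and 10411 at 24 h, 10012 were in both tables, and 10007 of these had a symbol and position in Ensembl 115 for WBcel235.

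The 28 libraries of 8 h and 24 h were scaled together over these genes by trimmed means of M values (TMM, written for this work). Genes with at least 1 CPM in at least 3 of the 6 libraries were tested (9849; 163 left out) on log2 CPM with a prior of 2 reads in limma 3.58.1 (R 4.3.3, trend on), two-sided, with Benjamini-Hochberg adjustment and a threshold of 0.05. The fit had the replicate number as a block, with 2 residual degrees of freedom and 9.92 prior degrees of freedom. Deviations of same-numbered libraries from their group means correlated at 0.40, 0.24 and 0.15 (highest with another number -0.19, 0.21 and -0.03, so that the pair numbered 2 hardly stood out), and their library codes run close together in the labels, so the numbers were taken as pairs. No 2 libraries of a group were copies (chi-square per gene 32.6 to 362). Nothing in the labels tells whether the replicates grew as separate cultures, and the p-values measure only how libraries vary, which may be technical. Differences of the change between groups came from a fit of 24 libraries, those of the depleted HSF-1-AID animals on auxin among them. The steps were tested on simulated data.

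The members and the 44 gene lists (from general knowledge of worm genes) were chosen with earlier results of these data known. Genes were named by rule: the 10 largest rises and 10 largest falls among called genes above the median level of 23.9 CPM with no overlap and 1 sign in all pairs; per list the called member with the highest level and the largest called changes; and hsf-1, hsp-90, hsp-1, rme-2, vit-2, sun-1 and unc-119. The cell type markers were a fixed list as well. The alternatives tried are given with their effect in the closing section. The unit of the deposited tables being log2, count models such as edgeR and DESeq2 were not run.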

Additional observations from a re-analysis of the deposited data

How the results depend on the processing

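Counting the pairing by number as a block, 3218 genes were called (1270 higher, 1948 lower); this became 1846 (480 higher, 1366 lower) with no replicate block, and of the named genes 94 kept their side of the threshold and 25 lost it. With each table's own scaling 4846 were called (3530 higher, 1316 lower), and the median of all genes moved from 0.01 to 0.20. Risers made up 39.5% of calls with the joint scaling, 72.8% with each table's own, 26.0% without the block and 27.003% with 8 h replicate 4 added, where 2059 genes were called (556 higher). Requiring at least 10 CPM left 2080 calls (1091 lower). Without each pair in turn, with 1 residual degree of freedom, 2439 to 2657 genes were called, 767 to 989 higher and 1612 to 1701 lower, and 9 to 16 named genes lost the threshold; without pair 2 or 3 the prior degrees of freedom were unlimited, so those p-values rest on the spread of genes at a like level, not on the gene's own. Median-of-ratios scaling (3437), upper-quartile scaling (3029), a prior of 0.5 (3208), no filter (3209) and 24 libraries in the fit (2774) stayed within 1.5 times of the count, as did limma voom on the recovered reads (3236), which was chosen after seeing the data. Among the named genes, signs turned only for ones that did not pass: vit-2 (log2 fold change -0.0758 with replicate 4 and -0.104 to 0.234 without each pair), hsp-90 (-0.0167 to 0.0291 without each pair) and hsp-1 (0.131 with each table's own scaling). The cause of these shifts was not tested. The 2 differences between groups had 0 calls under every alternative run. The planned edgeR and DESeq2 fits were not run, as the deposited unit is log2. Depth limits genes near 1 CPM, and lists of genes kept at a single time could not be tested.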

Other observations

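Apoptosis and engulfment genes, which clear dying germ cells in the adult gonad, went both ways. Of 21 tested, 4 rose and 3 fell, 33.3% called beside 32.7% of all genes tested: the engulfment receptor ced-1 was at 41.8, 48.2 and 45.9 CPM at 8 h, then 58.0, 71.6 and 64.4 CPM at 24 h (log2 fold change 0.51 ± 0.09, SE, limma adjusted p = 0.00132), while crn-6, a nuclease that degrades DNA of dead cells, fell by 1.01. The F-box and cullin adaptor family had 15 of 130 members higher and 10 lower, among the rises fbxa-182 (1.77). Its called share, 19.2%, was below the 32.7% of all genes tested, of which 12.9% were higher and 19.8% lower. Of 17 embryonic transcription factors, 5 rose and 3 fell, skn-1 at 0.33, elt-1 at 0.81 and elt-3 at -1.34. The share called was 47.1%, beside 32.7% of all genes tested. Without the replicate block 0 rose and 3 fell, and neither skn-1 (adjusted p = 0.149) nor elt-1 (adjusted p = 0.0622) passed in limma. For the 1270 genes that rose, 8 h replicate 4 was below all 24 h libraries in 941 (74.1%), and for the 1948 that fell it was above all 24 h libraries in 1744 (89.5%).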
